A study of Mus musculus with 9 samples.

Results

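The genes described here are the Wnt ligands, their Frizzled and LRP receptors, the R-spondins and the secreted Wnt inhibitors, followed in the lungs of asthmatic mice with and without a herbal treatment. They were chosen by symbol: rows named Wnt, Fzd, Sfrp, Dkk or Rspo with a number, Lgr4 to Lgr6, and Wif1, Lrp5, Lrp6, Axin2, Lef1, Tcf7, Porcn, Wls, Ror1, Ror2, Frzb and Notum, if at least 10 counts were present in at least 3 of the 9 libraries. Of 56 such rows, 47 met the count limit, out of 21983 genes in the table. They comprised 14 ligands, 2 genes of ligand secretion, 12 receptors, 7 genes of the R-spondin axis, 9 inhibitors and 3 nuclear factors or targets. The 9 rows left out were Wnt1, Wnt3, Wnt8a, Wnt8b, Wnt16, Fzd6, Fzd9, Dkk1 and Dkk4. Just outside the limit, Wnt3 and Wnt16 reached at most 9 counts. Just inside it, Lgr5 and Wnt9b had 10 or more counts in 3 libraries. Fzd6, Wnt8a and Wnt8b were listed at 0 in all 9 libraries, and such a 0 may also come from how reads were counted. All 47 members also passed the filter on low counts that was applied to the whole table. For every member, libraries with 10 or more counts came from more than 1 group. However, Sfrp5 and Lgr5 reached 10 counts in no asthma library, and Wnt6 and Wnt10a in no control library. Wnt10a met the limit only with its asthma libraries, and Wnt6, Frzb, Rspo2 and Lgr5 only with their BSYQF libraries. Lgr5 also needed the control libraries, and Wnt9b those of all 3 groups. A high level of such a gene in a group it needed is partly fixed by the limit.

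Lung RNA was sequenced from 3 groups of BALB/c mice, an inbred laboratory strain, with 3 libraries each. The BSYQF group had asthma and received the herbal formula BSYQF (Bu-Shen-Yi-Qi) by mouth from day 14 at 20 g of raw herbs per kg for 6 weeks, the asthma group had asthma and received saline by mouth from day 14, and the control group of normal mice received saline in the same way. How asthma was induced, the age of the mice and whether each library came from a different mouse were not given in the sources used here, so p-values measure only the spread among the libraries, some of which may be technical. The labelled tissue was borne out by its markers: 7 alveolar type 2 cell genes summed to 25530 to 38028 CPM (counts scaled to a common library size by the TMM method) and 4 club cell genes to 24747 to 49900 CPM in the 9 libraries.

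Counts per library ranged from 16286385 to 22819199, with asthma replicate 3 the deepest, and 3 counts corresponded to 0.131 to 0.184 CPM. After filtering, 14739 genes were tested. On the first principal component (51.6% of the variance) BSYQF replicates 1, 2 and 3 lay at -40.5, -1.20 and 19.6, asthma replicates 1, 2 and 3 at -51.9, -76.0 and -1.77, and the controls at 51.9, 56.7 and 43.2. Within their groups asthma replicate 3 and BSYQF replicate 1 were the most distant, and calls that change without them are given both ways. They were picked from these same data. On this component asthma replicate 3 lay towards the BSYQF and control libraries, and BSYQF replicate 1 towards the asthma libraries. Leaving out both therefore widens the distance between BSYQF and asthma, and leaving out asthma replicate 3 that between asthma and control.

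Wnt proteins are lipid-modified secreted ligands. They bind Frizzled receptors together with the co-receptors LRP5 or LRP6, which stabilizes beta-catenin and lets it act with the transcription factors TCF and LEF on target genes. R-spondins, through LGR receptors, raise the number of Frizzled receptors at the cell surface, while SFRP, WIF and Notum proteins act on the ligand and DKK proteins on the co-receptor. In the lung the pathway is known for its part in alveolar stem cell renewal and in the exchange of signals between epithelium and mesenchyme.

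At an adjusted p under 0.05 in edgeR, 7 of 47 members (14.9%; 12.7% of all genes) were called in asthma against control. The ligand gene Wnt10b, the co-receptor gene Lrp6, the receptor gene Fzd7, the inhibitor genes Notum and Sfrp5 and the feedback target Axin2 fell (12.8%; 4.45% of all genes). The inhibitor gene Sfrp1 rose (2.13%; 8.23% of all genes). Without asthma replicate 1, asthma replicate 2 or control replicate 2, 0 members were called. At an adjusted p under 0.05 in edgeR, 0 members changed in BSYQF against asthma, where 0.00678% of all genes did. In BSYQF against control 0 members changed, where 1.67% of all genes did. DESeq2 called 1 member (2.13%, beside 0.835% of all genes) and 3 members (6.38%, beside 5.6% of all genes) in these comparisons. The promoters of 4 of the 7 called members were in the RefSeq table of GRCm38.p6 and are shown because these 4, a ligand, a receptor, an inhibitor and a target, were lower together. Each line holds the 250 bases before the RefSeq transcription start, 5′ to 3′ on the strand of the gene, in the reference strain (not BALB/c), and capitals mark a match to the TCF/LEF core. The RefSeq start of Fzd7 lies before the GENCODE start used for its coordinates.
Wnt10b, chr15:98778151-98778400, minus strand: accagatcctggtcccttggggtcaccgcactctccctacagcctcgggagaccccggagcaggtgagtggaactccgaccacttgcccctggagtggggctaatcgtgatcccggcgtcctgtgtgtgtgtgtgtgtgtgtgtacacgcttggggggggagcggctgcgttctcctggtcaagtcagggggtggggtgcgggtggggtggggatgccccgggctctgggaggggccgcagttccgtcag
Fzd7, chr1:59481897-59482146, plus strand: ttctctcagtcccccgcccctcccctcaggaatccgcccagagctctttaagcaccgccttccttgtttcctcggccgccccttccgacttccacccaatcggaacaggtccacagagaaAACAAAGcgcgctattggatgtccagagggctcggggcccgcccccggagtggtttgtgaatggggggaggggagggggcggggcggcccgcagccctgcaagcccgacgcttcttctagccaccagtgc
Sfrp5, chr19:42202253-42202502, minus strand: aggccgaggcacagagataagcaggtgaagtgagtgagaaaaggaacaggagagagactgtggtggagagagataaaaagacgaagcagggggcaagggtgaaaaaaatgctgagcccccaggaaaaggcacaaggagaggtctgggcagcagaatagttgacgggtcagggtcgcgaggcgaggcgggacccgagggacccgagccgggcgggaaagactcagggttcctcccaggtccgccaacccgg
Axin2, chr11:108920099-108920348, plus strand: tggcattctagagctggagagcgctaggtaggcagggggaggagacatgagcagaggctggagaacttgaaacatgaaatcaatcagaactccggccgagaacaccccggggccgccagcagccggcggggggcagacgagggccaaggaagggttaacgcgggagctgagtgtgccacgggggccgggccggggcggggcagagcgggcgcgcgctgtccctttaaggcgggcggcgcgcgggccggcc
The core was searched on both strands in 4 forms, namely CTTTGAA as the first, then CTTTGAT as another, with CTTTGTA as a further form, and lastly CTTTGTT, and no other motif was searched. Fzd7 held CTTTGTT on the other strand, with its first base in the line at -130, and the Wnt10b, Sfrp5 and Axin2 windows held no match. The core was present in 4 of 38 promoters of members (10.5%; those of Fzd7, Lef1, Wnt11 and Wnt5b), beside 10.9% of 14568 promoters of the genes tested and 14.8% of all 32851 promoters in the table. No match says only that these letters were absent from these windows.

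What the asthma model alone changes is addressed by asthma against control. Called means an adjusted p under 0.05 over all 14739 genes in edgeR's quasi-likelihood test. By this rule 7 of 47 members were called, 14.9% of them, where 12.7% of all genes tested were called. Of the 47, 6 fell, 12.8%, where 4.45% of all genes were called lower, and 1 rose, 2.13%, where 8.23% of all genes were called higher. The median log2 fold change of the members was -0.43, beside 0.02 over all genes tested. Asthma and control libraries were fully separated in 21 members (44.7%; 40.4% of all genes), of which 17 were lower in asthma (36.2%; 18.4% of all genes) and 4 higher (8.51%; 22% of all genes). The 17 were Axin2, Fzd1, Fzd2, Fzd7, Fzd8, Lgr6, Lrp6, Notum, Rspo1, Sfrp4, Sfrp5, Tcf7, Wls, Wnt10b, Wnt2b, Wnt3a and Wnt5b, and the 4 were Dkk2, Sfrp1, Wnt10a and Wnt5a. Of these 4, Wnt10a met the count limit only with its asthma libraries, so its higher level there is not separate support.

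These calls depended on single libraries. Without asthma replicate 1, without asthma replicate 2 or without control replicate 2, 0 of the 47 members were called. Of all genes 1.15%, 1.66% and 1.22% were called in these fits, beside 12.7% with all 9 libraries, so calls were lost across the whole table. Without control replicate 1 only Wnt10b was called (2.13% of members, 2.94% of all genes). Without control replicate 3 only Wnt10b and Lrp6 were called (4.26% of members, 2.39% of all genes). Without BSYQF replicate 2 the calls of Fzd7 and Sfrp5 were lost (10.6% of members and 6.33% of all genes were called). Without asthma replicate 3, 1 member rose (2.13%; 14.8% of all genes in that fit) and 12 fell (25.5%; 13.7% of all genes), so 27.7% of members and 28.5% of all genes were called. Without both this library and BSYQF replicate 1, 1 rose (2.13%; 18.4% of all genes) and 15 fell (31.9%; 17.7% of all genes), so 34% of members and 36% of all genes were called. The members gained without asthma replicate 3 were Dkk3, Fzd4, Fzd8, Lrp5, Rspo1 and Wnt3a, and Fzd1, Fzd2 and Wls were gained in addition without both, all lower in asthma. Without BSYQF replicate 1 Wnt3a was gained, and without BSYQF replicate 3 Tcf7. Of all genes 17.7% and 15% were called in these fits, and 17% of members in each. DESeq2 called 11 members lower (23.4%; 10% of all genes), of which Fzd4, Lef1, Lrp5, Rspo1 and Wnt3a were not called by edgeR. The direction of each of the 7 called members was kept in all 9 fits that left out a library.

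**Figure D1:**
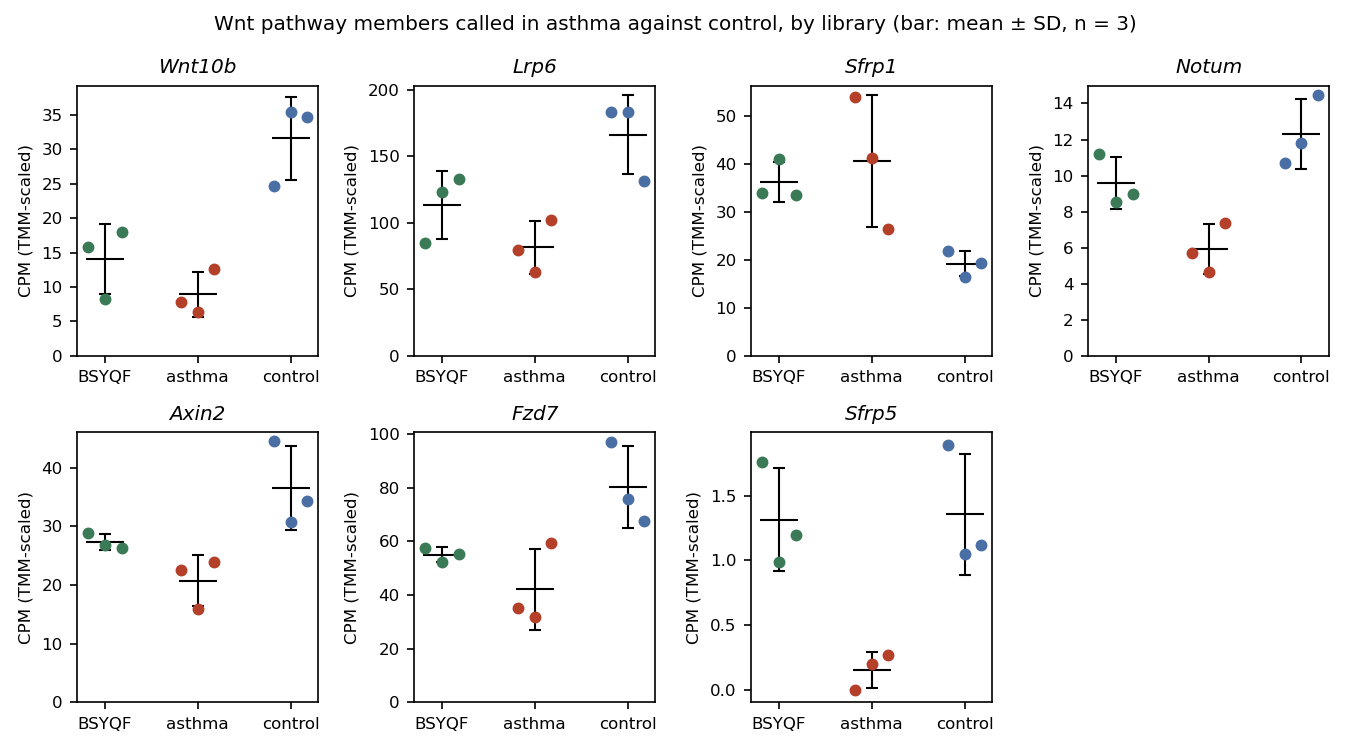
TMM-scaled CPM (vertical axes, each panel with its own scale) of the 7 members called in asthma against control, for BSYQF, asthma and control libraries (points, replicates 1 to 3 from left to right); bars show the mean ± SD of 3 libraries. For Wnt10b, Lrp6, Notum, Axin2, Fzd7 and Sfrp5 all 3 asthma points lie below all 3 control points, and for Sfrp1 all 3 lie above.

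Markers of several cell types moved with the same comparison, while other lists had few or no calls. Of the latter, median log2 fold changes were 0.165 for alveolar type 2, 0.439 for B cell and -0.247 for glia and nerve genes (0 called each). For club cell genes the median was -0.321 (1 called lower). The 8 alveolar fibroblast genes summed to 2595 to 5311 CPM in asthma libraries and 7019 to 7501 CPM in control libraries, with 4 of 8 called lower. For 7 alveolar type 1 cell genes the sums were 3584 to 5631 CPM in asthma and 6350 to 6812 CPM in control (3 called lower), for 5 pericyte genes 309 to 521 CPM in asthma and 653 to 830 CPM in control (0 called), and for 9 endothelial genes 2680 to 4683 CPM in asthma and 4492 to 6065 CPM in control (1 called lower). In the other direction, 5 interstitial macrophage genes summed to 551 to 593 CPM in asthma and 101 to 186 CPM in control (5 called higher), and 5 plasma cell genes to 3335 to 4607 CPM in asthma and 570.0 to 751 CPM in control (4 called higher). For 6 cardiac muscle genes the sums were 112 to 210.5 CPM in asthma and 396 to 896 CPM in control (5 called lower), for 6 adventitial fibroblast genes 930.0 to 1168 CPM in asthma and 1084 to 1293 CPM in control (2 called lower), and for 6 ciliated cell genes 395 to 699 CPM in asthma and 253 to 371 CPM in control (3 called higher). None of these genes was at 0 throughout a group, except Pdpn, an alveolar type 1 cell gene too low to test and at 0 in all BSYQF and all control libraries. In whole-lung RNA fewer cells of a type and less RNA per cell cannot be told apart, and the part of cell composition in the Wnt results was not tested.

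Among the ligands, levels per exon length were highest for Wnt2, Wnt10b and Wnt3a in control lung. Wnt2, a ligand of lung mesenchyme, stood at 5.65, 5.65 and 9.55 CPM per kb in BSYQF, asthma and control, and Wnt10b, a ligand of the beta-catenin branch, at 4.14, 2.63 and 9.29 CPM per kb. Levels under 0.6 CPM per kb in every group were those of Wnt6, Wnt9b and Wnt10a. Summed over the 14 ligands, the level was 34.7, 37.2 and 41.9 CPM per kb in BSYQF replicates 1 to 3, 36.5, 34.8 and 38.3 in asthma and 45.6, 54.3 and 56.2 in control, so every control library was above the other 6.

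Wnt10b had 7.81, 6.39 and 12.6 CPM in asthma libraries and 24.7, 35.4 and 34.7 CPM in control libraries. The groups did not overlap, and the log2 fold change of asthma over control was -1.81 ± 0.33 (SE; adjusted p = 0.0109). It had 15.9, 8.31 and 18.1 CPM with BSYQF, a range that overlapped with the asthma libraries and lay below all controls. The log2 fold changes were 0.65 ± 0.32 for BSYQF over asthma (adjusted p = 0.624) and -1.17 ± 0.32 for BSYQF over control (adjusted p = 0.101), of which the second was called without asthma replicate 3 (adjusted p = 0.0454) and by DESeq2 (adjusted p = 0.0137). Wnt10b lies on chromosome 15 from 98770712 to 98778150, minus strand (GENCODE annotation of GRCm38, as for the other genes here; all 7 called members are protein coding).

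Wnt3a, a further ligand of the beta-catenin branch, had 10.1, 13.5 and 15.2 CPM with BSYQF, 14.9, 11.5 and 16.6 CPM in asthma and 18.7, 22.7 and 25.4 CPM in control. The BSYQF and asthma libraries all lay below every control library, and neither fold passed (asthma over control -0.63 ± 0.22, adjusted p = 0.0752; BSYQF over control -0.78 ± 0.22, adjusted p = 0.111). Without asthma replicate 3, Wnt3a was called lower in asthma against control at -0.77 (adjusted p = 0.041), and DESeq2 called it in both comparisons. Wnt2 had 13.6, 8.95 and 15.7 CPM with BSYQF, 12.8, 10.96 and 14.4 CPM in asthma and 11.3, 27.6 and 25.6 CPM in control. Control replicate 1 lay within the range of the other groups, and the log2 fold changes over control were -0.76 ± 0.32 for BSYQF (adjusted p = 0.284) and -0.75 ± 0.32 for asthma (adjusted p = 0.127). Wnt2b, a close relative of Wnt2, had counts of 42, 67 and 121 with BSYQF, 37, 0 and 98 in asthma and 237, 101 and 83 in control, so its asthma level rests on asthma replicates 1 and 3.

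The ligands known mainly for signalling without beta-catenin showed small differences. Wnt5a averaged 22.4 ± 6.14 CPM with BSYQF, 25.6 ± 1.65 CPM in asthma and 20.9 ± 1.40 CPM in control (SD, n = 3 each), with all asthma libraries above all controls but no call (asthma over control 0.30 ± 0.20, adjusted p = 0.321). Wnt11 averaged 22.1 ± 5.37, 21.7 ± 6.15 and 17.6 ± 1.34 CPM in BSYQF, asthma and control, and its groups overlapped. Wnt5b averaged 5.11 ± 1.31, 3.89 ± 0.305 and 4.91 ± 0.599 CPM in the same order, with the asthma libraries below those of both other groups and no call. The epithelial ligands Wnt7a and Wnt7b and the ligands Wnt4 and Wnt9a were likewise not called, with log2 fold changes of asthma over control from -0.50 for Wnt9a to 0.19 for Wnt7b. The low ligands Wnt6, Wnt9b and Wnt10a reached 37, 28 and 18 counts in their highest libraries. Wnt6 had 37, 13 and 17 counts with BSYQF, 10, 1 and 23 in asthma and 8, 2 and 3 in control, with every BSYQF library above every control (BSYQF over control 2.41 ± 0.89, adjusted p = 0.224). Wnt6 met the count limit only with these BSYQF libraries.

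Both genes of ligand secretion were well expressed. Wls, the carrier that brings Wnt proteins to the cell surface, had 118, 156 and 151 CPM with BSYQF, 147, 114 and 168 CPM in asthma and 192, 189.7 and 169 CPM in control. Asthma and BSYQF libraries all lay below control, by a small margin for asthma replicate 3, and the folds did not pass (-0.36 ± 0.17 for asthma over control, adjusted p = 0.161; -0.37 ± 0.17 for BSYQF over control, adjusted p = 0.32). Without both asthma replicate 3 and BSYQF replicate 1, Wls was called lower in asthma at -0.51 (adjusted p = 0.0222). Porcn, the enzyme that attaches the lipid to Wnt proteins, averaged 28.6 ± 4.12, 29.0 ± 3.67 and 27.4 ± 4.49 CPM in BSYQF, asthma and control, and its groups overlapped.

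**Figure D2:**
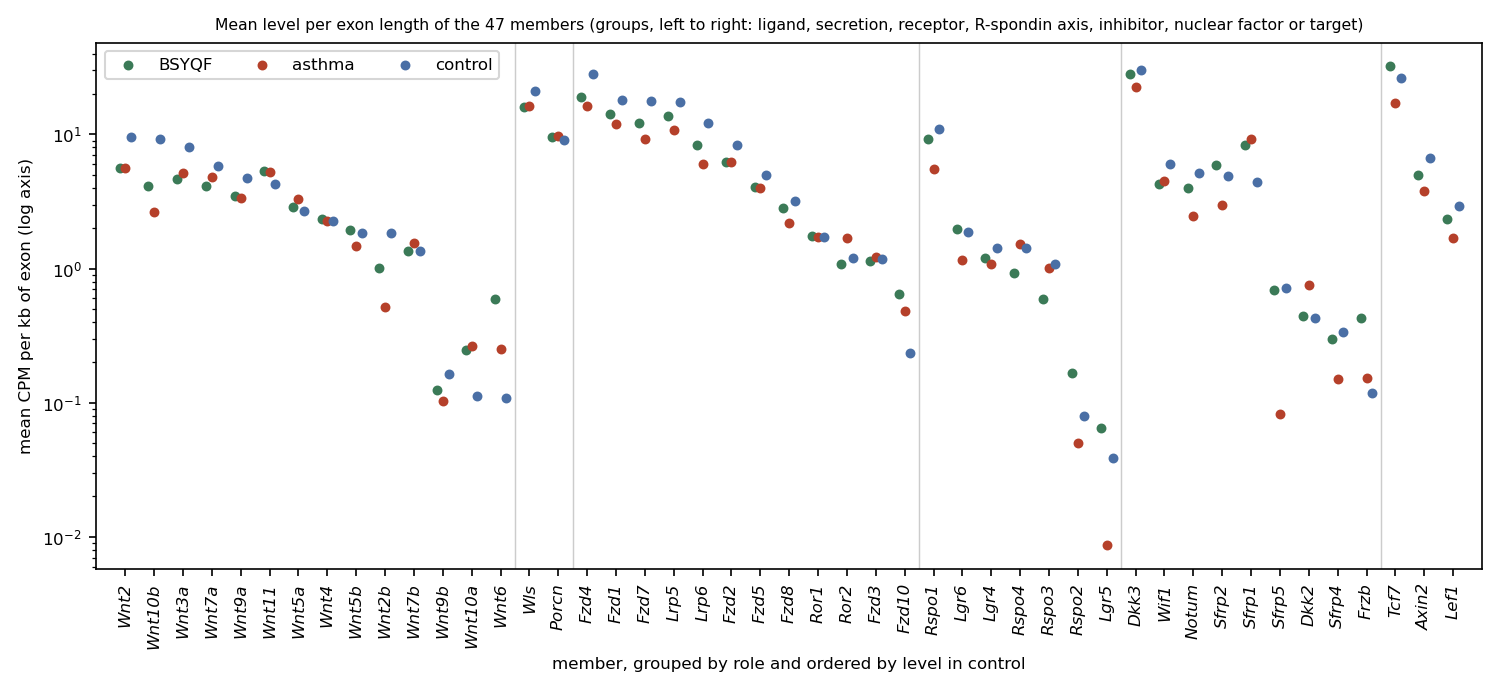
Mean TMM-scaled CPM per kb of exon (vertical log axis) of the 47 members, grouped by role and ordered by control level along the horizontal axis; points stand for BSYQF, asthma and control from left to right, 3 libraries each. Fzd4, Wls, Dkk3 and Tcf7 are near the top, and Lgr5 is lowest, at 0.0651, 0.00874 and 0.0385 CPM per kb in BSYQF, asthma and control.

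Of the 12 receptors 2 fell in asthma against control, 0 rose, and 5 had groups without overlap, all lower, where 4.45% of all genes were called lower, 8.23% were called higher and 18.4% were lower without overlap. Summed over the 12 receptors, the level was 70.0, 89.6 and 95.8 CPM per kb in BSYQF replicates 1 to 3, 69.2, 51.7 and 94.8 in asthma and 123, 122 and 98.4 in control. Asthma replicate 3 was thus close to control replicate 3.

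Lrp6, the co-receptor that relays the Wnt signal into the cell, had 79.7, 62.9 and 102.2 CPM in asthma libraries and 184, 184 and 132 CPM in control libraries. The groups did not overlap (log2 fold change -1.03 ± 0.23, adjusted p = 0.0221). With BSYQF it had 84.8, 123 and 133 CPM, a range that reached into both other groups. BSYQF over asthma gave 0.48 ± 0.22 (adjusted p = 0.622) and BSYQF over control -0.55 ± 0.22 (adjusted p = 0.266). Lrp6 lies on chromosome 6 from 134446476 to 134566965, minus strand. Its relative Lrp5 had 117, 145 and 141 CPM with BSYQF, 97.2, 68.5 and 150.1 CPM in asthma and 189, 184 and 134 CPM in control, with asthma replicate 3 above control replicate 3, and was not called (asthma over control -0.68 ± 0.25, adjusted p = 0.0902). Without asthma replicate 3 the Lrp5 fold was -1.04 (adjusted p = 0.00652), and DESeq2 called it lower with all libraries.

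Fzd7, a receptor of the beta-catenin branch, had 35.1, 32.0 and 59.5 CPM in asthma libraries and 97.1, 75.9 and 67.6 CPM in control libraries. Asthma replicate 3 was the highest of its group and still below every control (log2 fold change -0.92 ± 0.23, adjusted p = 0.0311). With BSYQF it had 57.7, 52.2 and 55.5 CPM, all below the controls and inside the asthma range (0.38 ± 0.23 over asthma, adjusted p = 0.646; -0.54 ± 0.23 over control, adjusted p = 0.276). Fzd7 lies on chromosome 1 from 59482424 to 59486955, plus strand.

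Fzd4, a receptor of blood vessel cells that also binds the ligand norrin, was the receptor with the highest level per exon length, at 18.8, 16.3 and 28.4 CPM per kb in BSYQF, asthma and control. It had 88.5, 135 and 156 CPM with BSYQF, 92.1, 68.6 and 167 CPM in asthma and 201, 224 and 147 CPM in control, and asthma replicate 3 was above control replicate 3 (asthma over control -0.80 ± 0.32, adjusted p = 0.103). Without asthma replicate 3 the Fzd4 fold was -1.26 (adjusted p = 0.00794), and DESeq2 called it lower with all libraries. Fzd1, Fzd2 and Fzd8 were lower in every asthma library than in every control library, with log2 fold changes of -0.59, -0.43 and -0.54 and no call (adjusted p = 0.124, 0.14 and 0.0963). Fzd8 was called without asthma replicate 3, at -0.81 (adjusted p = 0.0103), and Fzd1 and Fzd2 without both that library and BSYQF replicate 1, at -0.76 (adjusted p = 0.019) and -0.58 (adjusted p = 0.0309). Fzd3 and Fzd5, at 0.06 and -0.31, overlapped between these groups, and so did Fzd10, which had 6 to 54 counts across libraries. The co-receptors Ror1 and Ror2, which bind Wnt5a, were not called. Ror2 had 4.30, 5.52 and 4.01 CPM with BSYQF, 9.17, 7.26 and 5.11 CPM in asthma and 6.38, 4.10 and 4.89 CPM in control, and BSYQF replicate 2 lay within the asthma range (BSYQF over asthma -0.64 ± 0.30, adjusted p = 0.622).

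Of the 7 R-spondins and receptors of R-spondins, 0 were called by edgeR in asthma against control (4.45% of all genes were called lower), and 2, Rspo1 and Lgr6, were lower in asthma without overlap (18.4% of all genes). Rspo1, the R-spondin with the highest level per exon length here, had 17.3, 17.1 and 19.0 CPM with BSYQF, 11.9, 4.10 and 16.0 CPM in asthma and 28.4, 17.3 and 18.2 CPM in control. Asthma libraries were below all others, and the folds were -0.99 ± 0.39 for asthma over control (adjusted p = 0.1) and 0.73 ± 0.38 for BSYQF over asthma (adjusted p = 0.628). Rspo1 was called lower in asthma against control by DESeq2, at -1.02 (adjusted p = 0.0471), and without asthma replicate 3, at -1.42 (adjusted p = 0.023). Rspo1 is known as a mesothelial product, and 5 mesothelial genes summed to 145 to 229 CPM with BSYQF, 36.1 to 155 CPM in asthma and 180.4 to 403 CPM in control (0 called), whose part was not tested. Lgr6, an R-spondin receptor of airway smooth muscle and epithelial progenitors, had 10.3, 18.1 and 11.9 CPM with BSYQF, 5.55, 8.94 and 9.46 CPM in asthma and 11.8, 10.2 and 16.2 CPM in control. All asthma libraries lay below those of both other groups (BSYQF over asthma 0.75 ± 0.29, adjusted p = 0.609; asthma over control -0.67 ± 0.29, adjusted p = 0.134). Beside this, 4 basal cell genes summed to 8.71 to 21.1 CPM with BSYQF, 2.02 to 3.68 CPM in asthma and 7.78 to 10.4 CPM in control. Of these, 2 of 4 were called lower in asthma against control and 1 of 4 higher in BSYQF against asthma. A list of 8 myofibroblast and smooth muscle genes summed to 795 to 1183 CPM with BSYQF, 977 to 1399 CPM in asthma and 807 to 1215 CPM in control (0 called). The part of both lists in the Lgr6 values was not tested.

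Rspo4 and Rspo3 had other patterns. Rspo4 had 1.21, 3.02 and 2.34 CPM with BSYQF, 3.57, 3.56 and 3.68 CPM in asthma and 3.03, 3.39 and 3.62 CPM in control, so the BSYQF libraries were the lowest, without a call (BSYQF over asthma -0.71 ± 0.37, adjusted p = 0.628). Rspo3 averaged 1.82 ± 0.217, 3.10 ± 1.86 and 3.33 ± 0.37 CPM in BSYQF, asthma and control. Lgr4, the broadly expressed R-spondin receptor, averaged 7.01 ± 0.0837, 6.34 ± 0.276 and 8.39 ± 2.06 CPM. No library held over 17 counts of Lgr5, a stem cell receptor, or over 26 of Rspo2, and Lgr5 was at 0 counts in asthma replicates 1 and 2.

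Of 9 secreted inhibitors 1 rose and 2 fell in asthma against control, where 8.23% of all genes were called higher and 4.45% lower. Sfrp1, a secreted Frizzled-related protein that binds Wnt ligands, had 54.0, 41.3 and 26.5 CPM in asthma libraries and 21.9, 16.6 and 19.4 CPM in control libraries. No library overlapped, and asthma replicate 3 was the lowest of its group (log2 fold change 1.07 ± 0.24, adjusted p = 0.0222). With BSYQF it had 34.1, 41.0 and 33.7 CPM, all above the controls and inside the asthma range. The difference of BSYQF from asthma was -0.16 ± 0.23 (adjusted p = 0.829), and that of BSYQF from control was 0.91 ± 0.24 (adjusted p = 0.0875), which passed with an adjusted p of 0.0173 without asthma replicate 3 and 0.0237 without both that library and BSYQF replicate 1, and also in DESeq2 and in the fit of these groups alone. Sfrp1 lies on chromosome 8 from 23411502 to 23449632, plus strand.

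Notum, an enzyme that removes the lipid from Wnt proteins and is itself a target of the pathway, had 5.72, 4.64 and 7.40 CPM in asthma libraries and 10.7, 11.8 and 14.5 CPM in control libraries. The groups did not overlap (log2 fold change -1.05 ± 0.24, adjusted p = 0.0253). With BSYQF it had 11.2, 8.54 and 9.004 CPM, above every asthma library (BSYQF over asthma 0.69 ± 0.24, adjusted p = 0.579). Notum lies on chromosome 11 from 120653788 to 120661175, minus strand. Of its exon bases 29.4% overlap with the antisense gene Notumos and 8.7% with the antisense gene Myadml2os. With no strand setting stated for the counting, reads of Notum and of these genes cannot be told apart there.

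Sfrp5, a Frizzled-related protein known as a product of fat tissue, had 0, 3 and 6 counts in asthma libraries and 35, 18 and 21 counts in control libraries. With BSYQF it had 29, 17 and 23 counts, again without overlap with asthma. On the CPM scale the means were 1.31 ± 0.397 with BSYQF, 0.157 ± 0.14 in asthma and 1.35 ± 0.467 in control. The log2 fold change was -3.02 ± 0.77 for asthma over control (adjusted p = 0.0347) and 2.98 ± 0.77 for BSYQF over asthma (adjusted p = 0.38, the smallest p of the members in that comparison), and both rest on 9 asthma counts. Adipocyte genes moved in the same way: 5 of them summed to 25.1 to 128 CPM with BSYQF, 0.874 to 9.37 CPM in asthma and 32.2 to 144 CPM in control, 4 of 5 called lower in asthma against control, with Lep at 0 in all asthma libraries. Their part in the Sfrp5 result was not tested. Sfrp5 lies on chromosome 19 from 42197971 to 42202252, minus strand.

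The other inhibitors were not called with all libraries. Dkk3, a divergent DKK protein, was the most abundant inhibitor per exon length, at 28.4, 22.6 and 30.4 CPM per kb in BSYQF, asthma and control. It had 90.8, 94.8 and 100.1 CPM with BSYQF, 76.2, 49.1 and 102.5 CPM in asthma and 99.4, 95.4 and 112 CPM in control, with asthma replicate 2 lowest (asthma over control -0.43 ± 0.22, adjusted p = 0.189). Without asthma replicate 3 the Dkk3 fold was -0.72 (adjusted p = 0.0187). Dkk2, a ligand of LRP co-receptors, had 1.33, 1.74 and 1.82 CPM with BSYQF, 2.60, 2.42 and 3.36 CPM in asthma and 1.62, 1.35 and 1.81 CPM in control, so the asthma libraries were above those of both other groups (asthma over control 0.81 ± 0.37, adjusted p = 0.149; BSYQF over asthma -0.78 ± 0.37, adjusted p = 0.622). Wif1, which binds Wnt ligands directly, averaged 10.4 ± 0.828, 10.9 ± 3.34 and 14.6 ± 3.05 CPM in BSYQF, asthma and control. Sfrp2, made by fibroblasts, averaged 12.7 ± 5.75, 6.45 ± 3.90 and 10.6 ± 2.09 CPM in the same order. Sfrp4 and Frzb, with 45 and 42 counts in their highest libraries, had log2 fold changes of -1.17 and 0.34 for asthma over control and 0.99 and 1.51 for BSYQF over asthma. Frzb had 6, 28 and 42 counts with BSYQF, 11, 8 and 7 in asthma and 3, 5 and 13 in control, so the level with BSYQF rests on replicates 2 and 3 (BSYQF over control 1.85 ± 0.77, adjusted p = 0.274).

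**Figure D3:**
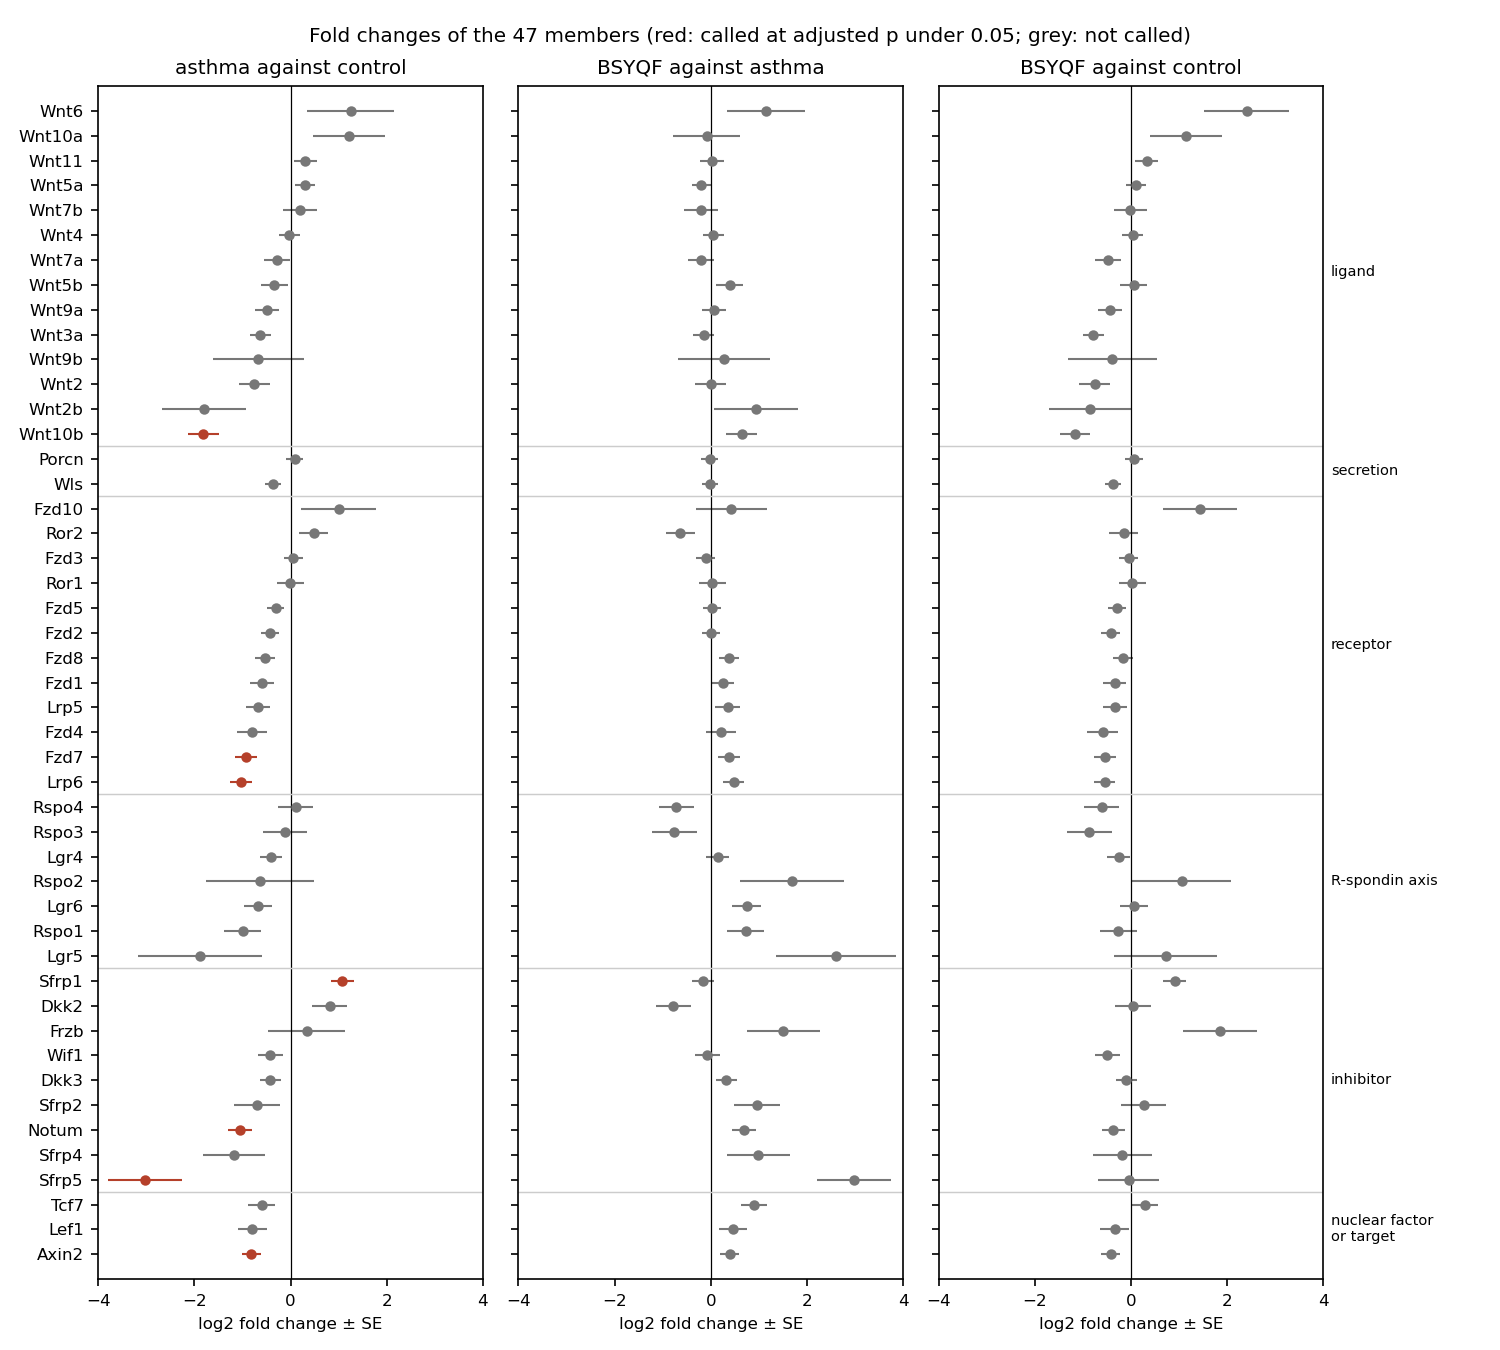
Log2 fold change ± SE (horizontal axes) of the 47 members, grouped by role, in 3 panels, asthma against control on the left and the 2 comparisons of BSYQF beside it; red points were called at an adjusted p under 0.05. Red points appear in the first panel only, where Sfrp1 lies at 1.07 and Wnt10b, Fzd7, Lrp6, Notum, Sfrp5 and Axin2 lie between -3.02 and -0.81.

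Axin2, a scaffold of the complex that degrades beta-catenin and a widely used target gene of the pathway, had 22.6, 15.9 and 23.9 CPM in asthma libraries and 44.6, 30.7 and 34.3 CPM in control libraries. The groups did not overlap (log2 fold change -0.81 ± 0.20, adjusted p = 0.0292). With BSYQF it had 28.8, 26.8 and 26.3 CPM, between the ranges of the other groups and overlapping with neither (0.39 ± 0.20 over asthma, adjusted p = 0.624; -0.42 ± 0.19 over control, adjusted p = 0.324). Axin2 lies on chromosome 11 from 108920349 to 108950783, plus strand, and 3.8% of its exon bases overlap with an antisense gene.

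Tcf7 and Lef1 encode transcription factors that bind beta-catenin and are known for high expression in naive T cells. Tcf7 had 58.7, 66.9 and 127 CPM with BSYQF, 46.1, 40.6 and 48.7 CPM in asthma and 58.1, 87.3 and 60.3 CPM in control. Its asthma libraries lay below all others, and BSYQF replicate 3 was far above the rest (BSYQF over asthma 0.90 ± 0.27, adjusted p = 0.513; 0.47 without that library; asthma over control -0.60 ± 0.27, adjusted p = 0.144, and 0.0463 without that library). Lef1 had 16.8, 15.7 and 28.8 CPM with BSYQF, 10.4, 19.3 and 15.0 CPM in asthma and 18.5, 28.6 and 30.5 CPM in control, and asthma replicate 2 reached into the control range (asthma over control -0.80 ± 0.30, adjusted p = 0.0923; called lower by DESeq2, adjusted p = 0.0475). Beside this, 8 T cell genes summed to 176 to 255 CPM with BSYQF, 124 to 176 CPM in asthma and 90.2 to 174 CPM in control. For 5 naive T cell genes the sums were 368 to 660.3 CPM with BSYQF, 348 to 488 CPM in asthma and 480 to 709 CPM in control. None of these genes was called in asthma against control, BSYQF against asthma or BSYQF against control, none was at 0 throughout a group, and their part was not tested.

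**Figure D4:**
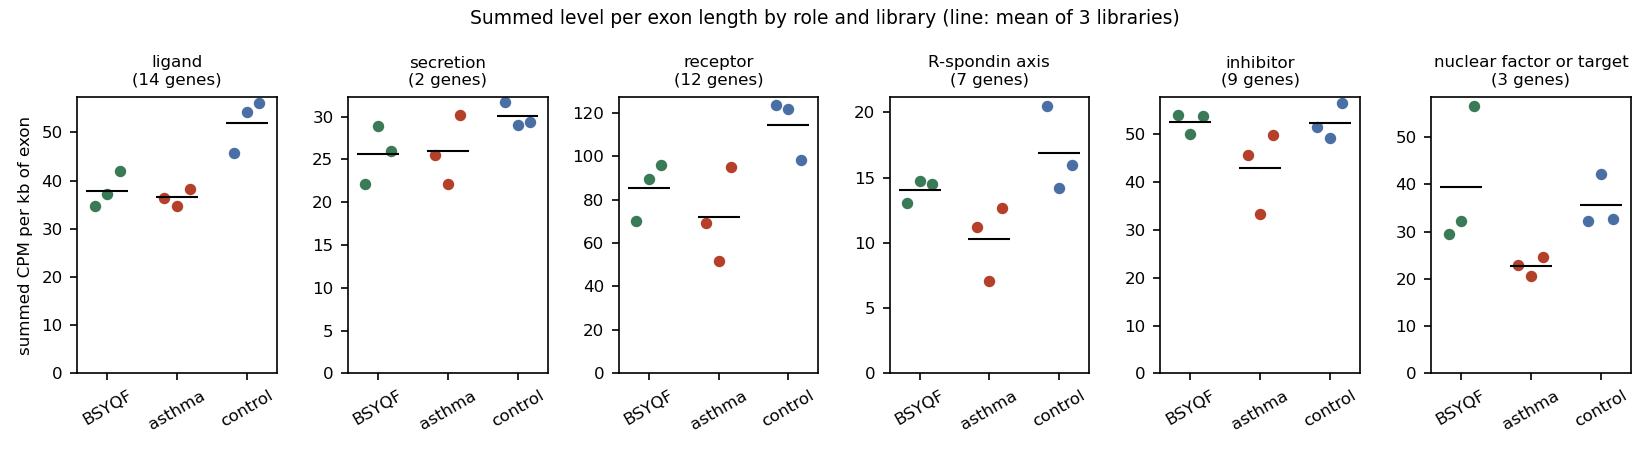
Summed TMM-scaled CPM per kb of exon (vertical axes, each from 0) of the members of each role in BSYQF, asthma and control libraries (points, replicates 1 to 3 from left to right); lines are means of 3 libraries. For the ligands every control point, 45.6 to 56.2, lies above the other 6, and for the 3 nuclear factors or targets the asthma points, 20.5 to 24.6, lie below all others. This last sum mainly follows Tcf7, at 32.1, 17.2 and 26.1 CPM per kb in BSYQF, asthma and control. Axin2 stands at 4.96, 3.77 and 6.64 and Lef1 at 2.33, 1.69 and 2.94 in the same order, and Lef1 overlaps between asthma and control.

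What the formula changes in an asthmatic lung is addressed by BSYQF against asthma. edgeR's quasi-likelihood test called 0 of 47 members, where 0.00678% of all genes tested were called. DESeq2 called 1, Sfrp5 (2.13%, beside 0.835% of all genes), and limma voom 0, with 0 called over all genes. At an unadjusted p under 0.05 (7.94% of all genes), 4 members were higher, Sfrp5, Tcf7, Notum and Lgr6 (8.51%; 3.79% of all genes), and 0 were lower (4.15% of all genes). BSYQF and asthma libraries did not overlap in 10 members (21.3%; 9.75% of all genes), in 8 that were higher with BSYQF (17%; 4.99% of all genes), Axin2, Lgr4, Lgr6, Notum, Rspo1, Sfrp5, Tcf7 and Wnt5b, and in 2 that were lower (4.26%; 4.76% of all genes), Dkk2 and Rspo4. The median log2 fold change of the members was 0.24, beside -0.01 over all genes. Marker sums also differed here: cardiac muscle genes had 393 to 1271 CPM with BSYQF and 112 to 210.5 CPM in asthma, with a median log2 fold change of 2.43 and 0 called, and the medians of the adipocyte and basal cell genes, whose sums are given above, were 4.76 and 2.84. Their part in the Wnt values was not tested. Without asthma replicate 3 and BSYQF replicate 1, 5 members were called higher (10.6%), Fzd4, Fzd7, Tcf7, Lrp6 and Lrp5. Of all genes 5.97% were called higher and 5.75% lower in that fit, 11.7% in all. Tcf7 was at 1.17 (adjusted p = 0.0387) and Lrp6 at 0.85 (adjusted p = 0.0264), in a fit with 2 libraries in each of these groups. The libraries left out were picked from these same data and lay towards the other group on the first principal component. Their removal by itself widens this comparison, so these calls are not separate evidence of a change with BSYQF. Of the members, the authors' deposited table of BSYQF against asthma, which like the other tables holds only genes with p under 0.05 and an absolute log2 fold change of at least 1 (424 genes here), held only Sfrp5, with a log2 fold change of 3.05 and an adjusted p of 0.217.

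How far the treated lung differs from a normal one is addressed by BSYQF against control. It gave 0 calls among the members by edgeR's quasi-likelihood test, where 1.67% of all genes were called (1.63% higher and 0.0407% lower). DESeq2 called 3 (6.38%, beside 5.6% of all genes). Of these Sfrp1 was higher (2.13%, beside 4.6% of all genes), and Wnt10b and Wnt3a were lower (4.26%, beside 1% of all genes). By limma voom 0 members were called, beside 0.617% of all genes. At an unadjusted p under 0.05 (15.8% of all genes), 3 members were higher, Sfrp1, Wnt6 and Frzb (6.38%; 10.1% of all genes), and 6 were lower, Fzd2, Fzd7, Lrp6, Wnt10b, Wnt2 and Wnt3a (12.8%; 5.7% of all genes). BSYQF and control libraries did not overlap in 12 members (25.5%; 24.8% of all genes), in 2 that were higher, Sfrp1 and Wnt6 (4.26%; 13% of all genes), and in 10 that were lower (21.3%; 11.8% of all genes), among them Axin2, Fzd2, Fzd7, Wls, Wnt10b and Wnt3a. Wnt6 and Frzb met the count limit only with the BSYQF libraries, so their higher level there is not separate support. The median log2 fold change of the members was -0.18, beside 0.00 over all genes. This comparison shares its controls with asthma against control and its BSYQF libraries with BSYQF against asthma. The authors' deposited table of this comparison, with 896 genes, listed 4 members, Wnt10b at -1.17, Wnt6 at 2.44, Fzd10 at 1.44 and Frzb at 1.86, of which only Wnt10b had an adjusted p under 0.05 there (0.003). The authors' deposited table for asthma against control, with 1746 genes, listed 6, Wnt10b, Lrp6, Sfrp1, Notum, Sfrp5 and Rspo1, with log2 fold changes of -1.84, -1.05, 1.05, -1.08, -3.11 and -1.02. Of these, Rspo1 had an adjusted p of 0.0596 there, and the others were under 0.05.

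**Figure D5:**
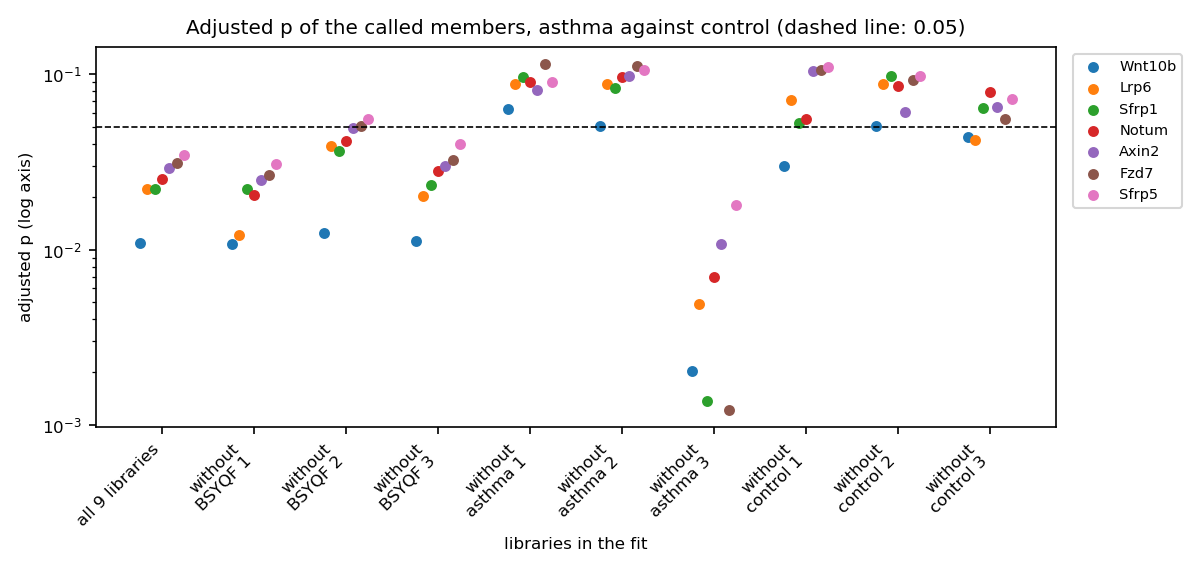
Adjusted p (vertical log axis; dashed line at 0.05) of the 7 called members in asthma against control, in the fit of all 9 libraries and with each library left out in turn (horizontal axis). Wnt10b ranges from 0.00203 without asthma replicate 3 to 0.0635 without asthma replicate 1, and all 7 lie above the line without asthma replicate 1, asthma replicate 2 or control replicate 2.

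Other genes of the pathway were described from a list of 60 genes in the table, of which 55 were tested. In asthma against control 2 of the 55 rose and 6 fell, where 8.23% of all genes were called higher and 4.45% lower. The median log2 fold change of the list was -0.20, beside 0.015 over all genes. By sublist, 1 of 21 genes of the destruction complex and signal relay fell, 2 of 13 membrane regulators fell, 1 of 9 planar cell polarity genes fell, and of 12 reported target genes 2 rose and 2 fell. Cd44, an adhesion receptor, had 266, 287 and 207 CPM in asthma libraries and 124, 139 and 126 CPM in control libraries (0.97 ± 0.15, adjusted p = 0.00873). Myc, a growth regulator that many other signals also raise, had 26.0, 24.5 and 14.3 CPM in asthma and 10.4, 11.4 and 11.2 CPM in control (0.97 ± 0.23, adjusted p = 0.0261). Both of these target genes were higher in every asthma library than in every control library, in the other direction from Axin2. The 2 called target genes that fell moved in the same direction as Axin2. Tbx3 (-0.915 ± 0.22, adjusted p = 0.0307) and Tnfrsf19 (-1.05 ± 0.26, adjusted p = 0.0317) were lower in every asthma library than in every control library. Prickle1, a planar cell polarity gene, averaged 71.7 ± 20.3 CPM in asthma and 133 ± 4.42 CPM in control (-0.89 ± 0.19, adjusted p = 0.0192). Tspan12, a membrane partner of Fzd4, averaged 42.9 ± 24.4 CPM in asthma and 108 ± 14.4 CPM in control (-1.33 ± 0.32, adjusted p = 0.0304). In BSYQF against asthma 0 of the 55 were called (0.00678% of all genes), with a median of 0.08. In BSYQF against control 0 were called (1.67% of all genes), with a median of -0.18. The smallest p in BSYQF against asthma was that of Wisp1, a secreted matrix protein, at 8.95 ± 2.84 CPM with BSYQF and 18.2 ± 10.3 CPM in asthma (-1.02 ± 0.38, adjusted p = 0.587). In BSYQF against control it was that of Cd44, at 198 ± 13.2 CPM with BSYQF and 129.6 ± 7.92 CPM in control (0.61 ± 0.15, adjusted p = 0.0746).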

How the data were processed

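Per the labels' protocols, lung RNA was isolated with Trizol and made into NEBNext Ultra libraries. FastQC, cutadapt, STAR, HTSeq, DESeq2 and the build mm10 are named in the submitters' processing notes; versions, annotation and strand setting were not given in the sources used here. Raw counts per gene were deposited by the authors, with tables of 3 comparisons holding log2 fold changes and p-values computed by the authors, whose 36 per-library columns were not used. Columns were matched to samples by the names in the labels.

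Counts were filtered with filterByExpr, scaled with TMM and tested with edgeR 4.0.16 in R 4.3.3 (estimateDisp, robust glmQLFit with legacy = TRUE, glmQLFTest) in 1 model of the 3 groups, with Benjamini-Hochberg adjustment over 14739 genes; the procedure was tested on simulated data. SE is the absolute log2 fold change divided by the square root of F. DESeq2 1.42.0 and limma 3.58.1 served as alternatives. CPM per kb used union exon length, and coordinates came from GENCODE (GRCm38). Values in every library are given for members called in any comparison, the 6 smallest p-values of each comparison and the highest level of each role; other members were added after their values were seen. Of the other pathway genes, at most the 4 with the smallest p were named per comparison, and Tbx3 and Tnfrsf19 were added so that every called target gene is named. The members, lists and rules were chosen with earlier results of these data known. For 30 of 38 member promoters, transcribed bases just after the window were found in a transcript of the gene as given, and for 0 reversed. This checks the strand of the windows, not their start.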

Additional observations from a re-analysis of the deposited data

How the results depend on the processing

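In asthma against control, 1 member was called higher and 6 lower. DESeq2 called 11 lower, and leaving out both asthma replicate 3 and BSYQF replicate 1 gave 15 lower; leaving out single libraries gave 0 to 1 higher and 0 to 12 lower. Over all genes 1869 were called, against 3315 by DESeq2, 5361 without both libraries and 171 to 4262 without single ones. In BSYQF against asthma, 0 members were called higher, but 1 by DESeq2 and 5 without both libraries; over all genes 1 was called, against 123 by DESeq2, 15 with the replicate block, 1744 without both and 0 to 114 without single ones. In BSYQF against control, 0 members were called; DESeq2 gave 1 higher and 2 lower, the fit of these 2 groups alone 1 higher, the fit without both libraries 1 higher, and leaving out single libraries 0 to 1 higher and 0 to 1 lower. Over all genes 246 were called, against 826 by DESeq2, 91 by limma voom, 389 with the 2 groups alone, 427 without both and 9 to 563 without single libraries. The cause was not tested. Fits without libraries hold fewer samples, and the 2 libraries left out together were picked from these same data. DESeq2 size factors, limma voom, no filter, a filter of at least 1 CPM in 3 libraries, legacy = FALSE, and, chosen after seeing the data, no scaling factors and upper quartile scaling moved no count of members by over 1.5 times. No fold change of a named member reversed in any of these fits. With the replicate number as a block, 1 member was called higher and 5 lower in asthma against control (Sfrp5 lost, adjusted p = 0.0554) and 0 in the other comparisons. No sign was found that the numbers pair the samples. Same-numbered deviations correlated at -0.26 to 0.34, and 3 of 18 checks found a sample closest to its own number. With 3 libraries per group these checks cannot show that pairing is absent. Depth limits members with few counts, such as Sfrp5, Lgr5, Rspo2, Wnt6 and Wnt9b.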

Other observations

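Some members are neighbours in the genome. Wnt6 and Wnt10a lie 6194 bases apart on chromosome 1. Wnt6 averaged 1.29 ± 0.823, 0.555 ± 0.482 and 0.236 ± 0.171 CPM in BSYQF, asthma and control (SD, n = 3 each), and Wnt10a 0.613 ± 0.437, 0.652 ± 0.0777 and 0.276 ± 0.0143 CPM. Wnt10a was higher in all 3 asthma libraries than in all 3 control libraries, with a log2 fold change of 1.22 ± 0.75 (adjusted p = 0.269 in edgeR). Wnt10a met the count limit only with these asthma libraries. Wnt3a and Wnt9a lie 16176 bases apart on chromosome 11, and Wnt9a averaged 11.6 ± 2.42, 11.1 ± 3.26 and 15.7 ± 2.18 CPM in BSYQF, asthma and control (asthma over control -0.50 ± 0.25, adjusted p = 0.186 in edgeR). Both pairs were chosen by position. Besides Notum, 8 members share exon bases with an annotated gene on the other strand, among them Fzd5 (17.8% of its exon bases), Sfrp2 (16.1%), Lef1 (13.7%) and Rspo3 (13.1%), for which the same limit of the counting holds.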
